A study of Mus musculus with 18 samples.

Results

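Extraocular muscle, the set of muscles that move the eye, was compared with leg muscle in dko mice at 8 weeks of age, using 3 expression arrays of each muscle. These 6 arrays were chosen by their titles, out of 18 in the series. The other 12 hold dko heart and the same 3 tissues from mdx mice, and each of the 6 groups has 3 arrays. In the usual sense of these names, mdx mice lack dystrophin and dko mice lack both dystrophin and its relative utrophin, so that the loss of dystrophin is common to all 18 arrays, controls included. The labels do not spell out dko, and they name neither the leg muscle taken nor the way the eye muscles were dissected. They number the arrays of a group from 1 to 3 without saying whether each number is an animal of its own. The spread behind every p-value is therefore that of these samples and may be technical.

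Dystrophin ties the actin skeleton of the muscle fibre, through a complex of membrane proteins, to the matrix outside, and utrophin can stand in for it. Where dystrophin alone is missing, limb fibres break down and regenerate in cycles, while the muscles around the eye are known to be spared. This sparing is not to be assumed for dko mice. Extraocular muscle differs from limb muscle in its fibres also in health: it is a mixture of fast, slow and embryonic myosins, is densely innervated and rich in vessels, and lies among fat and glands in the orbit.

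The values are array intensities on a linear scale without detection calls, and the number of arrays limits their precision. The 3 values given for a muscle are those of its arrays numbered 1, 2 and 3, in that order. The arrays numbered 3 stood apart in both muscles: their medians were 525.6 and 552, against 629.3 to 660.7 on the other 4, and their maxima reached 47024 and 74434, against 36130 to 46090. The replicate number entered the fit as a block. Differences are on the scale of log2(intensity + 166.7), as extraocular minus leg, with the standard error (SE) of the limma fit, and understate the ratio for dim probe sets. An adjusted p under 0.05 over all 8888 probe sets tested was taken as the threshold. Of 12 genes that mark skeletal muscle, all tested, 1 passed between the muscles (Acta1, below) and 11 did not. Their summed intensity overlapped (234000 to 449500 in extraocular and 191700 to 329400 in leg muscle), which alone cannot check the label. Against dko heart, Tnnt3 (means 51590 in extraocular, 38870 in leg and 285 in heart) and Ryr1 (31960, 30860 and 257) marked both muscles. Mb and Pygm were bright in heart too (means 18710 and 25070). Acta1 read 1282 and 1915 in dko leg arrays 1 and 2, below its mean of 6091 in dko heart. As a check of the genotype labels, 1 of the Utrn probe sets read 219.9 to 414 on the 9 dko arrays and 438 to 1087 on the 9 mdx arrays, without overlap, and the other overlapped (222 to 646 against 379 to 1005), as did Dmd (71.0 to 486 against 212 to 682). The labels do not say where these probe sets lie relative to the altered part of each gene. Myh13, which marks extraocular muscle, and Tbx4, which marks the hindlimb, had no value under those names.

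Of the 8888 probe sets, 674 (7.58%) differed between dko extraocular and dko leg muscle, 359 (4.04%) higher and 315 (3.54%) lower in extraocular muscle. The counts in gene lists given below are to be read beside these shares. List counts at an unadjusted p under 0.05 have no such share beside them and are not read as a result about a list. In 538 of the 674 the 2 groups did not overlap, whereas over all probe sets the extraocular arrays were all above the leg arrays in 7.97% and all below them in 7.47%. Without the replicate block 190 passed (2.14%), 127 (1.43%) higher and 63 (0.709%) lower, each of them among the 674. The count fell to 381 without extraocular array 2, 386 without extraocular array 3, 403 without leg array 2 and 399 without leg array 3. It fell to 346, 168 and 220 when all arrays numbered 1, 2 or 3 were left out. Across 18 alternatives, 9 of processing and 9 of arrays left out, 92 of the 674 passed in each one in which they were tested, 62 of them higher and 30 lower. Among 111 called probe sets chosen by a naming rule, 35 did so. Genes described below with no remark on their stability are among those 35. For the others, the remarks do not always name every alternative that ended a call.

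Bpifa2, which encodes a protein that salivary and lacrimal glands secrete, had the largest positive difference among the named genes. It read 13929, 13291 and 12165 in the extraocular arrays and 732, 517 and 94.2 in the leg arrays, a log2 difference of 4.61 (SE 0.286, 24.4-fold higher, adjusted p = 8.25e-07). The 3 extraocular values were close together and far above the leg values. Gm14743, a predicted gene, read 5589.6, 7252 and 3902 against 721, 365 and 88.9 and was 11.3-fold higher (log2 difference 3.50, SE 0.296, adjusted p = 8.93e-06). Of 14 tested genes of the lacrimal and Harderian glands, which lie beside the eye, 3 were higher and 0 lower, with a median log2 difference of 0.03 against 0.0098 over all probe sets. The others were the amylase Amy1, 792, 563 and 712 against 168, 57.4 and 157 (1.55, adjusted p = 0.000732), and the odorant-binding Obp1a, 506, 744 and 438 against 10.5, 12.1 and 89.9 (1.84, adjusted p = 0.00922; 1.65 and 0.0535 without extraocular array 2). The call of Obp1a also ended without the arrays numbered 1 (1.79, adjusted p = 0.104) or 2 (1.58, 0.194). The keratins Krt8 and Krt18 of gland epithelium (-0.59 and -0.54) and the immunoglobulin transporter Pigr (-0.50) did not pass. In whole tissue, more cells of a type and more RNA per cell cannot be told apart, here and for every cell type below.

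Genes of fat cells formed the list with the highest median, 0.89, with 7 of 15 higher and 0 lower, and 5 higher without the replicate block. Adiponectin, Adipoq, the main hormone of fat cells, read 10039.8, 5113 and 5335 in extraocular and 769.8, 802 and 481 in leg muscle (log2 difference 2.99, SE 0.355, 7.96-fold, adjusted p = 0.000145). Extraocular array 1 was the highest, and the groups were far apart. Resistin, Retn, another fat hormone, read 1897, 1137 and 1036 against 70.6, 91.9 and 83.3, so that the leg arrays were near the bottom of the range (2.57, adjusted p = 0.000803). The lipid droplet protein Cidea differed less (2366, 2588 and 2972 against 1165, 1083 and 746, 1.28, adjusted p = 0.000674). Scd1, which desaturates fatty acids, read 13022, 14659 and 19673 against 2069.9, 3102 and 2858 (2.48, adjusted p = 0.00922). Its call ended without extraocular array 3 (2.04, 0.0585) and without the arrays numbered 1 (2.45, 0.0806) or 2 (2.64, 0.117). The second probe set of Scd1 did not pass (2.22, adjusted p = 0.0539). The esterase Ces1d, abundant in fat, was dim in leg muscle (1429, 1119.9 and 1215 against 31.4, 23.2 and 20.9, 2.88, adjusted p = 0.000116), and both of its probe sets were higher.

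Some myelin and Schwann cell genes were higher as well. Of 14 tested, 6 passed as higher and 0 lower (median 0.53), 4 of them also without the block. Mbp, myelin basic protein, read 5529.9, 3989 and 8747 in extraocular and 884, 639 and 1228 in leg muscle, a 5.63-fold difference (2.49, SE 0.222, adjusted p = 1.26e-05); its other probe set did not pass (0.12). Pmp22, a protein of compact myelin, read 10384, 10901 and 14939 against 2248, 2619.8 and 2767 (2.16, adjusted p = 1.03e-05). The 3 leg values of Pmp22 were close together and far below those of the eye muscles. S100b, a calcium-binding protein of Schwann cells, read 509.9, 574 and 654 against 148, 114 and 88.7 (1.40, adjusted p = 0.000674), and its call ended only when the arrays numbered 3 were left out (1.25, 0.0584).

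**Figure D1:**
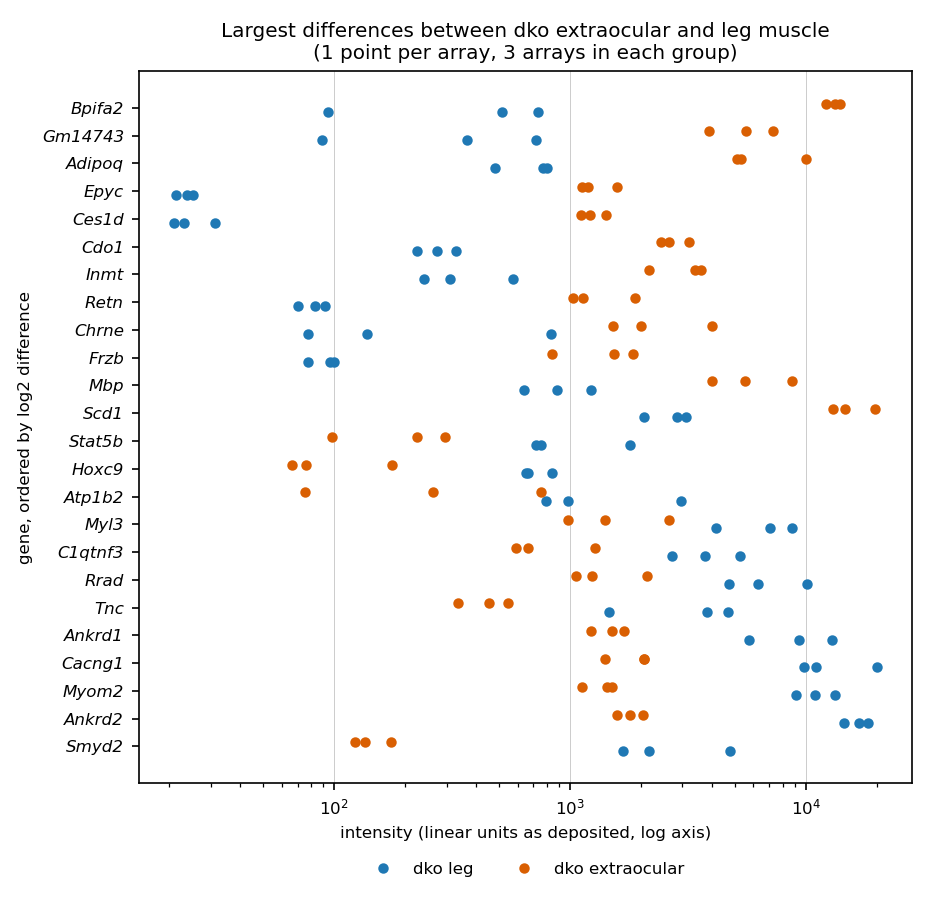
Intensity of the 24 genes with the largest differences by the naming rule, 1 point per array (horizontal log axis, linear units as deposited), dko extraocular muscle in orange and dko leg muscle in blue, 3 arrays each. The orange points of Bpifa2 lie at 12165 to 13929 and the blue ones at 94.2 to 732, and for Ankrd2 the order is turned, with orange at 1586 to 2048 and blue at 14570.4 to 18447.

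Other genes with large positive differences encode enzymes and secreted proteins. Epyc encodes epiphycan, a small proteoglycan of cartilage, and read 1585, 1196 and 1126 in extraocular muscle against 21.4, 23.7 and 25.1 in leg muscle (2.94, SE 0.189, adjusted p = 8.78e-07). Frzb, a secreted inhibitor of Wnt signals, read 837, 1541 and 1846 against 100, 96.5 and 77.4 (2.55, adjusted p = 5.12e-05). In both genes the leg values stayed at or below 100 and the groups were far apart. The cysteine dioxygenase Cdo1 (3214, 2635 and 2442 against 273, 224 and 329, 2.73) and the methyltransferase Inmt (3606, 2164 and 3406 against 576, 311 and 241, 2.59) had adjusted p of 2.38e-05 and 5.12e-05. The glutathione transferase Gsta4 (1.89) and the eosinophil attractant Ccl11 (1.31), which fibroblasts make, were higher too (adjusted p = 0.000369 and 0.000227). Of 20 fibroblast genes 5 were higher and 1 lower (median 0.51), the lower one being the calcium-binding S100a4, which read 3796, 3407 and 3282 against 9827, 8111 and 10056 (-1.37, adjusted p = 0.000639). The fibroblast genes Dpep1, a dipeptidase (3793, 2799 and 3153 against 1467, 1661 and 1394, 1.02, adjusted p = 0.00429), and Igfbp6, which binds insulin-like growth factor (7512, 8142 and 11243 against 2792, 3239.9 and 5256, 1.25, adjusted p = 0.00349; 0.151 without the block), were higher without overlap. The call of Dpep1 ended without the arrays numbered 3 (0.99, 0.122). The tendon and cartilage list had 0 of 11 members past the threshold in limma (median 0.11), and 0 with an unadjusted p under 0.05.

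Some genes of red cells and vessels were higher in extraocular muscle. The beta globin gene Hbb-b2 read 19446, 23154 and 8493 against 5376, 2982 and 2302 (2.17, adjusted p = 0.0094). Its call ended without extraocular array 2 (1.68, adjusted p = 0.0595) or leg array 3 (1.96, 0.0546), and without the arrays numbered 1 (2.35, 0.088) or 2 (1.82, 0.0849). Alas2, the first enzyme of haem synthesis in red cells, was higher as well (1.81, adjusted p = 0.00666), and its call ended without the arrays numbered 1 (1.75, 0.0563) or 2 (1.68, 0.158). Red cell genes passed in 3 of 9 (median 0.62). Endothelial genes passed in 5 of 19 (median 0.24), and in 2 without the block: the angiopoietin receptor Tek (1194, 1533 and 1142 against 315, 692 and 488, 1.16, adjusted p = 0.00429) and the clotting factor Vwf (2182, 2704 and 2014 against 975, 1325 and 1410.2, 0.82, adjusted p = 0.00351). The call of Tek ended without the arrays numbered 1 (0.99, adjusted p = 0.0975), and that of Vwf without those numbered 1 (0.71, 0.0793) or 2 (0.75, 0.132). Smooth muscle genes were 4 higher and 1 lower of 14 with the block and 0 without it, led by the smooth muscle myosin Myh11 (1911, 3207 and 5408 against 563, 752 and 707, 2.02, adjusted p = 0.00465; 0.0564 without the block).

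The summed levels of the marker lists differed between the muscles for some lists. The extraocular arrays lay above the leg arrays without overlap for fat (64290 to 74610 against 51920 to 61350), nerve and Schwann cell (40600 to 42610 against 18950 to 30810), red cell (47720 to 64360 against 16970 to 23140), gland (22560 to 31230 against 10670 to 20630) and fibroblast genes (133600 to 188800 against 111800 to 132600). They overlapped for endothelium (33740 to 50170 against 30250 to 34420), smooth muscle (62000 to 82560 against 63120 to 71130), tendon and cartilage (14580 to 17860 against 16650 to 18110) and retina and eye pigment (10130 to 16510 against 11120 to 20910), and for T cell, B cell and skin genes. Macrophage genes lay the other way, at 74980 to 78370 in extraocular and 85700 to 155400 in leg muscle. With each member left out in turn, a check added after seeing the data, the red cell and macrophage sums stayed apart. The gland sums overlapped without Bpifa2 (10390 to 17300 against 10570 to 19900, with the leg array higher in each pair), and the nerve sums without Pmp22 (27670 to 30220 against 16180 to 28560). The fat sums overlapped without Scd1 (49630 to 54940 against 48820 to 59280), Adipoq or Lpl, and the fibroblast sums without any 1 of 6 members. No member of any of these lists was at 0. The part of such other tissue in the differences of muscle genes was not tested.

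**Figure D2:**
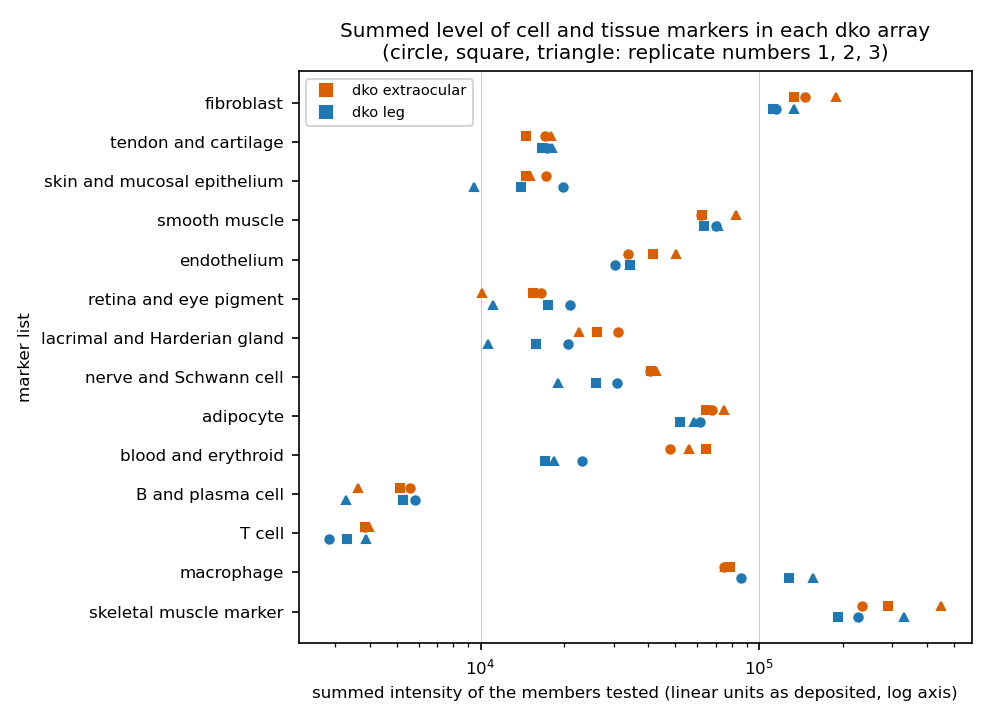
Summed intensity of the tested members of each marker list in the 6 dko arrays (horizontal log axis), extraocular muscle in orange and leg muscle in blue, with the symbol giving the replicate number. Orange and blue separate for red cell genes (47720 to 64360 against 16970 to 23140) and run into each other for skeletal muscle markers (234000 to 449500 against 191700 to 329400).

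Smyd2, which encodes a lysine methyltransferase found in the sarcomere, had the largest negative difference among the named genes. It read 123, 136 and 174 in extraocular muscle against 1685, 2160 and 4783 in leg muscle (-3.16, SE 0.372, 8.94-fold lower, adjusted p = 0.000138). Its second probe set was lower too (-1.70). Ankrd2, a stretch-responsive protein that binds titin, read 1586, 2048 and 1804 against 18447, 16826 and 14570.4 (-3.08, SE 0.216, 8.48-fold lower, adjusted p = 1.22e-06). Its relative Ankrd1, which is induced by injury and load, read 1228, 1503 and 1704 against 9335, 12904 and 5734 (-2.46, adjusted p = 0.000141). For all of these genes every extraocular array lay below every leg array, and for Ankrd2 the leg arrays were close together. The Z-disc proteins Csrp3 (4409, 7166 and 7635 against 14795, 12650.2 and 21189, -1.32, adjusted p = 0.000488) and Pdlim3 (7002, 8607 and 5397 against 18354, 20936 and 12204, -1.26, adjusted p = 1e-04) were lower by less.

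A subunit and a regulator of calcium channels were lower. Cacng1, the gamma subunit of the muscle calcium channel, read 2057, 1412 and 2068 against 11016, 9799 and 20044 (-2.72, SE 0.302, 6.6-fold lower, adjusted p = 8.79e-05). Rrad, a small GTPase that restrains calcium channels, read 1241, 2117 and 1066 against 4730.3, 10105 and 6266 (-2.12, adjusted p = 0.000192). Of 23 calcium-handling genes 2 were higher and 3 lower (median -0.16), and the pore subunit Cacna1s (-0.16) and the release channel Ryr1 (0.04) did not pass. S100a1, which sensitises the release channel, was higher (8715, 11017 and 11175 against 3594, 4757 and 5064, 1.18, adjusted p = 0.000116). The secreted protein C1qtnf3 (663, 1281 and 593 against 2705, 5275 and 3731, -2.02) and the growth hormone signalling factor Stat5b (98.3, 295 and 224 against 719.9, 755 and 1796, -1.69) were lower too, with adjusted p of 0.000476 and 0.000145.

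Of the genes that pattern the body, 2 Hox genes were lower in the eye muscles. Hoxa10 read 10.5, 16.6 and 18.9 in extraocular and 481, 442 and 209 in leg muscle (-1.54, adjusted p = 0.000459), and Hoxc9 read 76.4, 176 and 66.6 against 662, 838 and 649.6 (-1.71, adjusted p = 5.12e-05). Hox genes of these groups pattern the trunk and limbs. Of 20 limb and trunk genes tested 2 were lower and 2 higher (median -0.10). Of the higher ones, Pitx1, which specifies the hindlimb, went against the labels as a marker. It read 1753, 2247 and 1153 against 1029.5, 778 and 841 (0.81, adjusted p = 0.0293, and 0.332 without the block). The other, the T-box gene Tbx15, read 8434, 11414 and 4485 against 3834, 2594 and 2986 (1.24, adjusted p = 0.0122). The call of Pitx1 ended without leg array 2 (0.55, adjusted p = 0.147) or any single extraocular array (0.74 to 0.88, 0.0587 to 0.113), and that of Tbx15 without extraocular array 1 (1.15, 0.0525) or 2 (0.97, 0.075) or leg array 2 (1.03, 0.0732). The Tbx15 probe set 100355_g_at passed too (0.87, adjusted p = 0.028), and 100354_at did not (0.59). In the head patterning list 1 of 17 was higher, Foxc2 (1.11, adjusted p = 0.0273; 0.0679 without the block), and its call ended without any 1 of 5 arrays (0.86 to 1.30, adjusted p up to 0.148; it held without leg array 1).

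The contractile genes of slow fibres, a hallmark of extraocular muscle, did not pass the threshold as higher in dko extraocular muscle. The list of 12 slow contractile genes had 0 higher and 3 lower (median 0.15). Of the lower ones, the Z-disc protein Csrp3 and the stretch-responsive Ankrd2 are not slow isoforms of contractile proteins. The other was the slow light chain Myl3 (1404, 986 and 2623 against 7046, 4167 and 8786, -1.93, adjusted p = 0.00467, and 0.208 without the block). Myh7, the slow myosin heavy chain, read 15142, 21658 and 24223 in extraocular and 17632, 15031 and 16145 in leg muscle (0.30, SE 0.44, adjusted p = 0.765). Slow troponin C, Tnnc1, read 10632, 13264 and 22242 and 11874, 9672 and 14006 (0.32, SE 0.254, adjusted p = 0.525). In both genes the muscles overlapped, and both were bright in all 6 arrays. Slow troponin T, Tnnt1 (0.60), the slow light chain Myl2 (0.01) and the slow tropomyosin Tpm3 (1.34) did not pass either (adjusted p = 0.371, 0.996 and 0.118). Of these, Tpm3 was higher without overlap (14673, 22585 and 55032 against 11394, 9749 and 9951). The probe set names of Myh7 (98616_f_at) and Tnnt1 (161361_s_at) carry endings that Affymetrix gave to sets shared with related transcripts. A dimmer second probe set of Myh7 also did not pass (0.01).

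The mdx arrays, which share no sample with the dko arrays, gave another picture for these genes. In mdx mice 1106 probe sets (12.4%) differed between the muscles, 581 (6.54%) higher and 525 (5.91%) lower, and 357 (4.02%) without the block, 228 (2.57%) higher and 129 (1.45%) lower. Myh7 read 11231, 18949 and 22901 in mdx extraocular and 241, 1999 and 363 in mdx leg muscle (4.46, adjusted p = 2.1e-05), and Tnnc1 read 10274, 13033 and 21981 and 2344, 1361 and 2348 (2.77, adjusted p = 1.17e-05). For Myh7 and Tnnc1 the extraocular values lay in the same range in both genotypes, and the mdx leg arrays alone were dim. The mdx leg arrays were also uneven in some fast genes, such as Myh4 (10918, 461 and 48678) and Casq1 (9514, 7.9 and 39647). The dko arrays were uneven in some fast genes too. Casq1 read 9393, 28768 and 60084 in dko extraocular and 11672, 3855 and 26103 in dko leg muscle. Other fast genes were even in mdx leg muscle, such as Tnni2 (7690, 5939 and 6432). Whether this unevenness bears on the slow genes was not tested. Of the 12 slow genes 6 were higher and 2 lower in mdx extraocular muscle (median 1.20). Tested as a difference between the 2 contrasts, dko minus mdx, Myh7 differed by -4.17 (SE 0.622, adjusted p = 0.0294) and Tnnc1 by -2.45 (SE 0.359, adjusted p = 0.0294). Without the replicate block the adjusted p were 0.0851 and 1, and fitted on the arrays of these muscles alone 0.131 and 0.0884. The call for Myh7 held without mdx extraocular array 1 or mdx leg array 2 and ended without any other of the 12 arrays (-4.92 to -3.74 over all 12, adjusted p up to 0.127). That for Tnnc1 held without dko leg array 3, mdx extraocular array 1 or mdx leg array 1 and ended without any other (-2.71 to -2.26, up to 0.127). The dimmer second probe set of Myh7 did not pass in mdx (0.32, adjusted p = 0.291). It did not pass in the test of the difference either (-0.31, adjusted p = 0.833). Tnnt1 (-1.75), Myl2 (-4.07), Tpm3 (-1.63) and the slow calcium pump Atp2a2 (-1.61) had the same sign and did not pass (adjusted p = 0.502, 0.502, 0.622 and 0.0778).

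**Figure D3:**
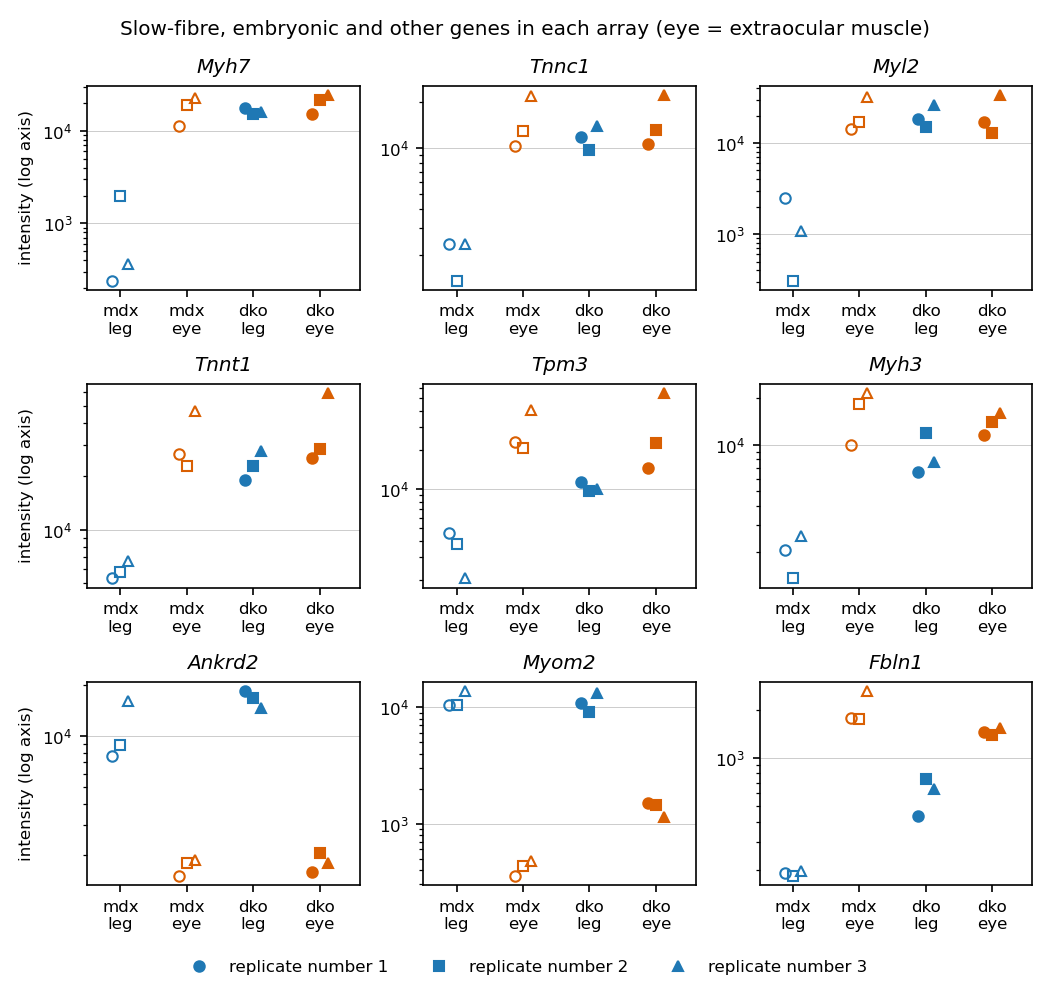
Intensity of 9 genes in each array of mdx leg, mdx extraocular, dko leg and dko extraocular muscle (vertical log axis), with leg in blue, extraocular in orange, mdx open, dko filled, and the symbol giving the replicate number. Myh7 lies at 241 to 1999 in mdx leg muscle and at 15031 to 17632 in dko leg muscle, while Myom2 lies at 1128 to 1507 in dko and 352 to 479 in mdx extraocular muscle.

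The promoters of Myh7, Tnnc1 and Fbln1 are shown, 3 of the 4 named genes whose muscle difference itself differed between dko and mdx mice (the other is Myom2), as the regulatory sequence next to the start of each. The lines give the 250 bases before the first listed start of Myh7 (chromosome 14, 54994627 to 54994876, minus strand), Tnnc1 (chromosome 14, 31208062 to 31208311, plus strand) and Fbln1 (chromosome 15, 85205699 to 85205948, plus strand) from RefSeq on the build GRCm38.p6, 5′ to 3′. Capitals mark the E-box CANNTG, some forms of which myogenic factors bind, and the MCAT element CATTCC, which TEAD factors bind, searched on both strands.
Myh7: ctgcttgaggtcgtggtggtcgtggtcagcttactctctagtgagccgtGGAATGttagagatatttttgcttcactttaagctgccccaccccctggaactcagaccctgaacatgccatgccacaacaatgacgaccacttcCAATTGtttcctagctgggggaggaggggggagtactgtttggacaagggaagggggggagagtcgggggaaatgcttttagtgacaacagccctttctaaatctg
Tnnc1: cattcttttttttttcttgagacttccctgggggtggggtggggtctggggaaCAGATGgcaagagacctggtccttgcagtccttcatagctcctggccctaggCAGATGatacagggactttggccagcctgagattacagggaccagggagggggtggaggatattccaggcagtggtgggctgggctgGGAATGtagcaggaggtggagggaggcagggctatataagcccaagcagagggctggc
Fbln1: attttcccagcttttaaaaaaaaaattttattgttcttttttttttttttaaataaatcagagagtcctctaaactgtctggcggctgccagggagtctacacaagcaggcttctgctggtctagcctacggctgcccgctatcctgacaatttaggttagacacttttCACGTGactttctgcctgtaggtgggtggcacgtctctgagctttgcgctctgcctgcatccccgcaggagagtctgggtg
An MCAT element lay 201 bases before the start of Myh7 and 58 bases before that of Tnnc1, on the opposite strand in both (GGAATG), and 0 were found before Fbln1. E-boxes lay 106 bases before Myh7 (CAATTG), 197 and 145 bases before Tnnc1 (CAGATG) and 81 bases before Fbln1 (CACGTG). An E-box was present in 66.2% and an MCAT element in 12.6% of all 32851 windows of this length. The MEF2-type element, CTA and TAG with any 4 bases between them, was in 0 of these 3 windows and in 3.2% of all. A match is a string of letters only and shows neither binding nor a cause.

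In all, 5 of 8888 probe sets (0.0563%) passed the test of the difference between dko and mdx, 4 lower (0.045%) and 1 higher (0.0113%), and 0 passed in limma without the replicate block (667 and 180 had an unadjusted p under 0.05 with and without it). Beside Myh7 and Tnnc1 these were Fbln1, Myom2 and the unnamed probe set 98501_at. Fibulin 1, Fbln1, a matrix protein, read 1441, 1393 and 1532 in dko extraocular and 433, 743 and 640.4 in dko leg muscle (1.09, adjusted p = 0.00103), and 1769, 1756 and 2618 and 191, 183 and 197 in mdx (2.61, adjusted p = 7.08e-07). It was higher in the eye muscles in both genotypes, by less in dko (-1.52, SE 0.238, adjusted p = 0.0379; 0.487 without the block), and its brighter probe sets did not pass in dko (0.55 and 0.75). Leaving out any 1 of the 12 arrays ended the call of the difference of -1.52 (-1.62 to -1.36, adjusted p 0.064 to 0.155). In the same test the brighter probe sets of Fbln1 did not pass (-0.85 and -0.49, adjusted p = 0.698 and 0.778). The probe set 98501_at, which has no symbol here, read 218, 98.7 and 40.7 in dko extraocular and 821, 881 and 574 in dko leg muscle (-1.73, adjusted p = 5.14e-06), and 253, 254 and 106 and 303, 245 and 108 in mdx (-0.05, adjusted p = 0.87). Only the dko leg arrays stood out. The difference of -1.68 (SE 0.195, adjusted p = 0.00494; 1 without the block) held without any single array (-1.80 to -1.57, adjusted p up to 0.0346).

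Myom2, which encodes an M-band protein of fast fibres, was lower in extraocular than in leg muscle in both genotypes. It was bright in heart too, with a mean of 9841 in dko heart against 11130 in dko leg muscle, so it does not mark fast fibres alone. In dko it read 1507, 1433 and 1128 against 10933, 9097 and 13350.2 (-2.88, SE 0.164, 7.37-fold lower, adjusted p = 5.06e-07), and in mdx 352, 433 and 479 against 10449, 10520.2 and 13882 (-4.32, adjusted p = 2.04e-09). The leg values were alike and the dko extraocular values were the higher ones. The differences of the 2 genotypes differed by 1.44 (SE 0.231, adjusted p = 0.0402; 0.303 without the block), and the call held only without dko extraocular array 3 among the 12 arrays left out in turn (1.33 to 1.64, adjusted p up to 0.17). The list of 15 fast contractile genes had 0 higher and 2 lower, Myom2 and Pdlim3 (median 0.05). Some of the others varied widely between arrays and had large errors, such as Casq1 (1.25, SE 1.15) and Myl1 (1.1, SE 0.942).

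**Figure D4:**
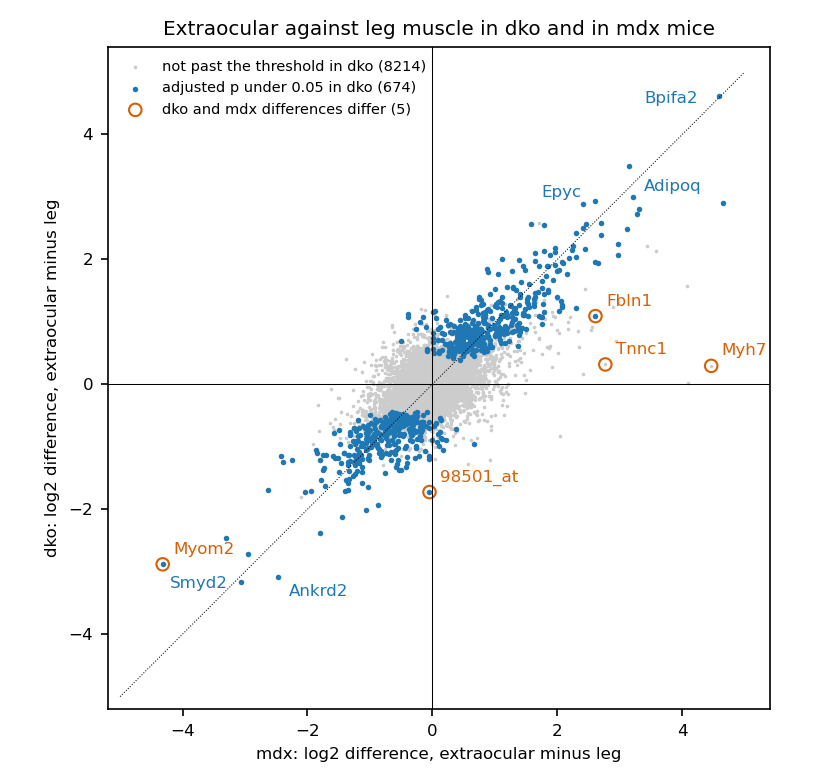
Log2 difference between extraocular and leg muscle in mdx mice (horizontal) and dko mice (vertical) for 8888 probe sets, those past the threshold in dko in blue, with the line of equal difference dotted. The 5 probe sets whose difference itself differed between genotypes are circled: Myh7 lies at 4.46 in mdx and 0.30 in dko, and Bpifa2, at 4.59 and 4.61, lies on the line.

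Most of what passed in dko went the same way in mdx. Of the 674 probe sets 453 passed in both genotypes, 67.2% of those in dko and 41% of those in mdx, and 0 of the shared ones differed in direction. The 2 contrasts share no sample, but their arrays share the replicate numbers. Both came from the same fit and have the same SE for each probe set, so the shared calls are not independent. Bpifa2 (4.59 in mdx), Adipoq (3.22), Mbp (2.41), Smyd2 (-3.06), Cacng1 (-2.96) and Hoxc9 (-1.94) had mdx differences close to those in dko, and the tests of those differences gave adjusted p of 0.997, 0.947, 0.979, 0.985, 0.93 and 0.886. Of the 221 probe sets that passed in dko alone 1 (98501_at) passed the test of the difference, and of 653 in mdx alone 2 did (Myh7 and Tnnc1).

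Among 7 myosin heavy chain genes 1 passed in dko, the nonmuscle Myh14 (4309, 3736 and 3566 against 3039.7, 2223 and 1604, 0.75, adjusted p = 0.0189; 0.293 without the block), with a call that ended without any array numbered 2 or 3 (0.65 to 0.84 over all 6, adjusted p up to 0.0999). The fast Myh4 read 18890.1, 29652 and 57332 and 20815, 15397 and 35507 (0.50, SE 0.999, adjusted p = 0.833), and the fast Myh1 29944, 33985 and 58159.9 and 33219, 26915 and 44919.6 (0.19, adjusted p = 0.889). Array 3 was the brightest of each muscle for both. Embryonic Myh3 read 11529, 14115 and 16067 and 6628, 11846 and 7648 (0.70, adjusted p = 0.164), and perinatal Myh8 6517, 6538 and 8629 and 4812, 5722 and 3802 (0.59, adjusted p = 0.0637). The embryonic gene was bright in both dko muscles. In mdx it was 9979.7, 18438 and 21625 against 2049, 1345 and 2548 (2.94, adjusted p = 1.72e-05), and the difference between genotypes did not pass (-2.24, adjusted p = 0.0778). Alpha myosin, Myh6, of heart and some eye muscle fibres, read 501, 897 and 533 against 68.7, 126 and 133 without overlap and did not pass (1.53, SE 0.595, adjusted p = 0.147). The skeletal actin gene Acta1 varied widely between arrays of a group. It read 16595, 28889.7 and 53392 against 1282, 1915 and 20656, with the arrays numbered 3 the brightest of each muscle, and its call (2.90, adjusted p = 0.0263; 0.189 without the block) ended without any single array but leg array 3 (2.41 to 3.70, adjusted p up to 0.113).

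At the neuromuscular junction 1 of 14 genes passed (7.14%), near the 7.58% over all probe sets. Chrne encodes the epsilon subunit of the adult acetylcholine receptor, and the probe set with the highest mean over the 18 arrays read 1763, 1918 and 1991 against 882, 1059 and 767 (0.95, SE 0.163, adjusted p = 0.00238), a call lost when the arrays numbered 2 (1.04, 0.0523) or 3 (0.82, 0.0614) were left out. The probe set 92966_g_at read 2008, 1523 and 4021 against 138, 77.9 and 835 (2.56, adjusted p = 0.000605) and held in every alternative, and a further one did not pass (1.01). The gamma subunit of the fetal receptor, Chrng, read 1121, 1350.1 and 1608 against 2329, 2989 and 2384, lower in each extraocular array, and did not pass (-0.84, adjusted p = 0.113). The subunits Chrna1 (0.22), Chrnb1 (0.30) and Chrnd (-0.25) did not pass.

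In the list of the dystrophin complex and of the costamere, the rib of attachment around the Z-disc, 1 gene was higher and 4 were lower of 23 (median -0.09), and 0 passed without the replicate block. The genes that passed were sarcospan and beta-sarcoglycan, which belong to the complex, and caveolin, vinculin and lamin A, which do not. The caveolin Cav3 of the muscle membrane read 7403, 9508 and 6231 against 13609.9, 19483 and 10737 (-0.89, adjusted p = 0.00214; 0.335 without the block), and both of its probe sets were lower. Beta-sarcoglycan, Sgcb, read 1129, 1367 and 1341 against 1598, 2523 and 2465 (-0.69, adjusted p = 0.00519; 0.188 without it), and vinculin, Vcl, 4846, 7911 and 5862 against 8293, 14697 and 9917 (-0.79, adjusted p = 0.00116; 0.329 without it). Each of Cav3, Sgcb and Vcl was lower in every pair of arrays with the same number, and no array of one muscle overlapped the other. Lamin A of the nuclear envelope, Lmna, was lower too (-0.81, adjusted p = 0.0317; 0.771 without the block), and its call ended without array 1 or 2 of extraocular muscle or array 2 or 3 of leg muscle (-0.82 to -0.71, up to 0.132). Sarcospan, Sspn, was higher by 0.66 (adjusted p = 0.0092; 0.516 without the block) with overlap. Dmd, the dystrophin gene, read 486, 228 and 186 and 409, 262 and 71 (0.21, adjusted p = 0.657), and Utrn, the utrophin gene, 222, 271 and 345 and 646, 431 and 233 (-0.39, adjusted p = 0.498; 0.11 on its other probe set). Neither passed between the muscles.

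In the macrophage, antigen presentation and matrix lists more genes were lower than higher in dko extraocular muscle. All 28 macrophage genes tested had a negative difference, with a median of -0.56 against 0.0098 over all probe sets, but 3 passed (0 without the block): the lectin Lgals3 (2591, 3409 and 3879 against 4773, 8584 and 11425, -1.22, adjusted p = 0.0176; 0.261 without the block) and the complement genes C1qa (-0.91) and C1qc (-0.77). Each of these calls ended without any array numbered 2 or 3 (-1.35 to -1.08 and adjusted p up to 0.0914 for Lgals3 over the 6 arrays, -1.04 to -0.79 and 0.101 for C1qa, -1.01 to -0.52 and 0.164 for C1qc), and that of C1qc also without extraocular array 1. Of 26 genes of antigen presentation and interferon response 0 were higher and 4 lower (median -0.18), and 1 without the block. The antigen-presenting molecule H2-Ab1 read 2007, 1408 and 1636 against 3361, 3541 and 5387 (-1.19, adjusted p = 0.000824). Its call ended without the arrays numbered 2 (-1.16, 0.0617) and on the arrays of the contrast alone (-1.19, 0.057). Of 51 matrix genes 2 were higher and 8 lower (median -0.21), and 2 and 4 without the block. Tenascin C, Tnc, made at sites of repair and at tendon junctions, read 455, 334 and 547 against 1461, 4703 and 3829.9 (-2.39, SE 0.356, 5.23-fold lower, adjusted p = 0.000824), and its other probe set was lower (-1.58). Collagen VIII, Col8a1 (1239, 1049 and 1029 against 2352, 2479.9 and 3252, -1.16, adjusted p = 0.000545), and the protease inhibitor Timp1 (5054, 4226 and 6342 against 9524, 13978 and 15939, -1.30, adjusted p = 0.00812) were lower, the latter not without the arrays numbered 2 (-1.10, 0.196). The matrix genes higher in the eye muscles were the proteoglycan Ogn (4356, 3876 and 4729 against 1649, 1839.7 and 2217, 1.12, adjusted p = 0.00238) and the protease inhibitor Timp3 (8495, 11211 and 10941 against 4557, 5061 and 4956, 1.04, adjusted p = 0.00461), and both calls ended without the arrays numbered 2 (1.18, 0.0696, and 1.00, 0.113).

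Regeneration and myogenic genes numbered 1 higher and 4 lower of 33 (median -0.18), and 1 and 1 without the block. Myostatin, Mstn, which restrains muscle growth, was the higher one (2795, 1896 and 1719 against 880.1, 643 and 663, 1.34, adjusted p = 0.000527), and Ankrd1, described above, the lower one that did not need the block. Runx1, a transcription factor of denervated muscle, read 151, 464 and 476 against 570.2, 994 and 2633 (-1.41, adjusted p = 0.000695; 0.207 without the block). Bex1, an adaptor protein of regenerating muscle, read 214, 316 and 504 against 652, 1075 and 1351 (-1.22, adjusted p = 0.000228; 0.145 without the block). In both genes the leg array of each number lay above the extraocular array of that number. Cell division genes passed in 0 of 24 in limma (median -0.13), and 5 had an unadjusted p under 0.05, 1 of them higher.

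Energy metabolism differed in single genes. Ldhb, the heart-type subunit of lactate dehydrogenase, read 4277, 3402 and 7081 against 1134, 466 and 1412 (2.16, SE 0.251, 4.46-fold higher, adjusted p = 0.000126). Of 15 glycogen genes 1 was higher, the amylase Amy1, and 3 lower (median 0.00), among them the phosphorylase kinase subunit Phka1 (2281, 1539.9 and 2038 against 3777, 4259 and 5574, -1.15, adjusted p = 0.00549) and the glycogen-targeting phosphatase subunit Ppp1r3c (-1.13, adjusted p = 0.011). The call of Phka1 ended without the arrays numbered 2 or 3, and that of Ppp1r3c also without extraocular array 3 (-0.98, adjusted p = 0.0649) or leg array 3 (-0.87, 0.0685). Fatty acid oxidation genes were 4 higher of 23 with the block and 0 without it (median 0.32), led by the fatty acid transporter Cd36 (2311, 3117 and 1748 against 966, 1356 and 909, 1.02, adjusted p = 0.00293; 0.133 without the block). Oxidative phosphorylation genes had 45 of 50 positive with a median of 0.21 and 1 past the threshold (Cox8b, 0.97, adjusted p = 0.0486; 0.922 without the block), and in the tricarboxylic acid cycle 0 of 20 passed in limma (median 0.17), and 3 had an unadjusted p under 0.05, all higher.

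The remaining lists held few genes past the threshold, which 7.58% of all probe sets passed. Heat shock and oxidative stress genes were 5 higher and 0 lower of 29 (median 0.12), and 1 without the block (Gsta4). The plasma glutathione peroxidase Gpx3 read 10797, 11978 and 28657 against 4662, 5069.8 and 8253 (1.39, adjusted p = 0.000893; 0.178 without the block). Ion channel and pump genes were 3 higher and 2 lower of 16 (median 0.33), with 0 without the block, and the sodium pump subunit Atp1b2 was the largest of the lower ones (263, 75.3 and 753 against 978, 791 and 2971, -1.72, adjusted p = 0.00635; 0.228 without the block). Array 3 was the brightest of each muscle for these genes. Energy buffering and oxygen binding genes were 1 higher and 2 lower of 13 (median -0.11), glycolysis genes 2 and 1 of 21 (0.14), chemokine, cytokine and complement genes 2 and 2 of 21 (-0.21), immediate early genes 2 and 2 of 16 (-0.13) and glucocorticoid and fasting genes 1 and 1 of 19 (0.09). Cardiac and embryonic isoforms were 0 higher and 1 lower (Ankrd1) of 12 (0.18), and skin and mucosal epithelium 2 higher of 22 (0.17), among them the desmosome-associated Perp (364, 265 and 813 against 49, 19 and 76, 1.51, adjusted p = 0.0033), whose call ended without the arrays numbered 3 (1.26, 0.15). In limma 0 passed in the lists of T cells (6 tested), B and plasma cells (7), retina and eye pigment (11) and ribosomal proteins (19), where 0, 0, 2 and 1 had an unadjusted p under 0.05.

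**Figure D5:**
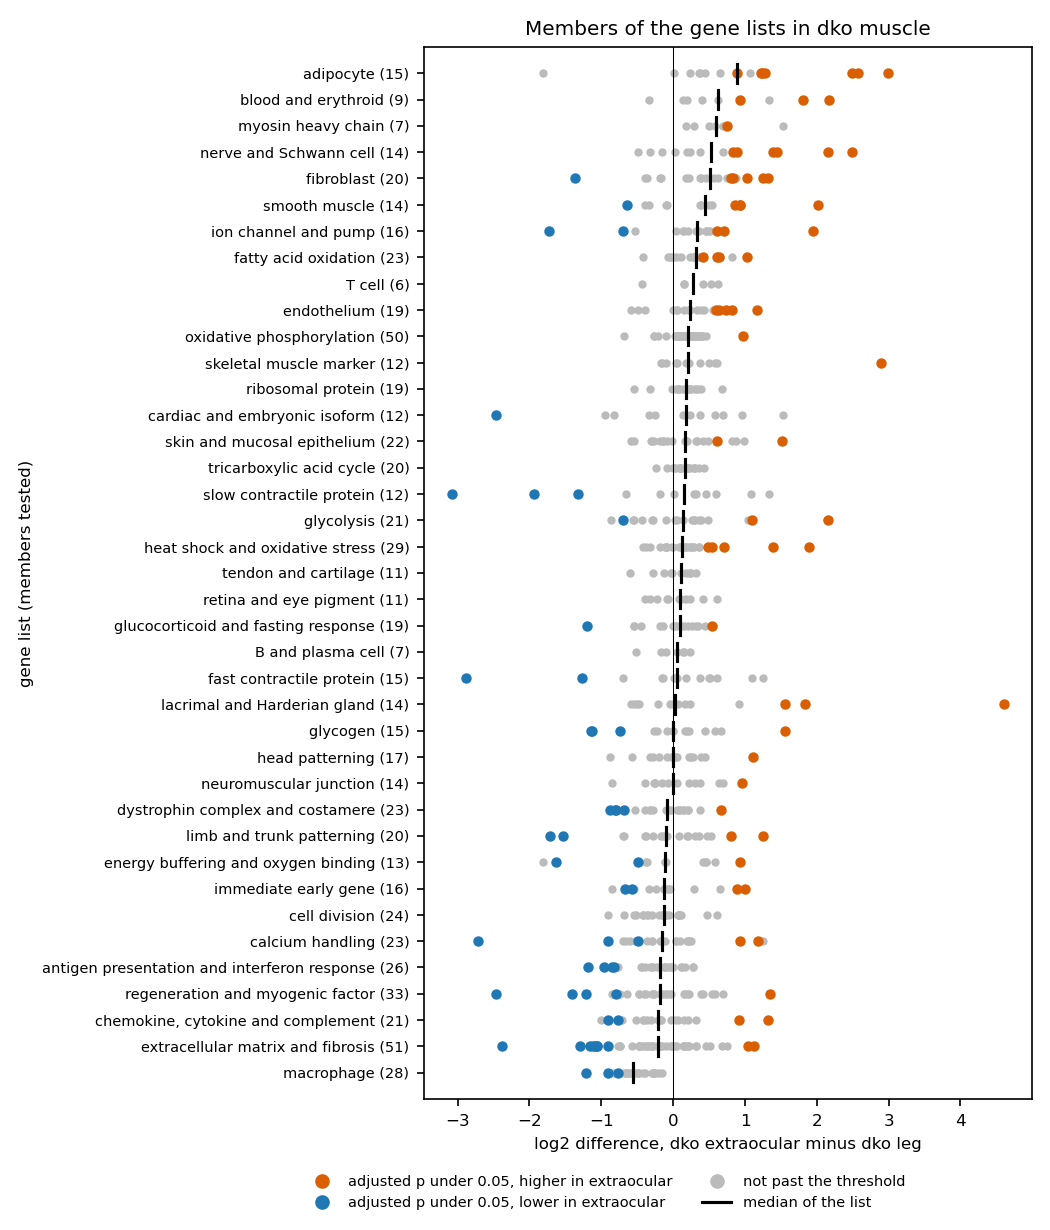
Log2 difference between dko extraocular and dko leg muscle for each tested member of 39 gene lists (orange, higher past the threshold; blue, lower past it; grey, not past it), with the median of each list as a black bar. Fat cell genes have the highest median (0.89) and macrophage genes the lowest (-0.56).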

How the data were processed

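Expression was measured on 18 Affymetrix arrays, 3 per group, at 8 weeks of age. The deposited values are intensities on a linear scale; read from the values, each array has a trimmed mean near 1501, and the software and its settings are not given in the sources used here. No detection calls were used. Groups and replicate numbers come from the titles. The members and gene lists were chosen with earlier results of these data known.

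An offset of 166.7 (the median over arrays of the 25th percentile) was added to the deposited intensities and log2 was taken, with no further scaling. Of 12422 probe sets that are not controls, 8888 were tested, those that exceeded an array's 40th percentile on 3 or more arrays. Of those 12422, 10833 had 1 gene symbol, 396 several and 1193 none, and only the first were named. limma 3.58.1 in R 4.3.3 was fitted to all 18 arrays, with group means and the replicate number as a common block, two-sided, with Benjamini-Hochberg adjustment over 8888 and a threshold of 0.05. The block leaves 10 residual degrees of freedom. Same-numbered dko arrays deviated together from their group means (r = 0.594, 0.431 and 0.737, against -0.621 to 0.174 for different numbers), likewise in mdx (0.576, 0.36 and 0.694); the pairing comes from the titles. Of the array columns, 0 pairs were identical, and each array was counted as 1 sample. The fit was also run on data simulated with the same additive block. That run cannot show whether the block is right for these arrays.

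Named genes were the 12 highest and 12 lowest called with the same sign in all 3 pairs and no overlap, up to 4 called members of each list in each direction, all tested myosin heavy chains, Dmd, Utrn and Myh13, and up to 8 called in the difference between dko and mdx; values of other list members and second probe sets were added after their values were seen. A list counts each gene by its brightest probe set. No set test was run. Alternatives were no block, the arrays of the contrast alone, quantile or 75th percentile scaling, other offsets and filters, trended robust variances, and arrays left out. Promoters come from RefSeq (GRCm38.p6). matplotlib 3.10.9 under Python 3.11.15 drew the figures.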

Additional observations from a re-analysis of the deposited data

Results flagged for a closer look

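In 5 probe sets the difference between extraocular and leg muscle itself differed between dko and mdx mice, by limma's test of dko minus mdx. It was -4.17 for Myh7 (adjusted p = 0.0294), -2.45 for Tnnc1 (0.0294), -1.68 for the unnamed probe set 98501_at (0.00494), -1.52 for Fbln1 (0.0379) and 1.44 for Myom2 (0.0402). For Myh7, Tnnc1 and 98501_at the array values place the gap between genotypes in leg muscle, and for Myom2 in extraocular muscle. The mdx leg arrays were uneven in some fast genes, and so were the dko arrays of both muscles. Other probe sets of Myh7 (-0.31, adjusted p = 0.833) and Fbln1 (-0.85 and -0.49, adjusted p = 0.698 and 0.778) did not pass this test. Without the replicate block 0 of the 5 passed, with adjusted p of 0.0851, 1, 1, 0.487 and 0.303.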

How the results depend on the processing

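Leaving out the replicate block gave 190 probe sets in dko, 357 in mdx and 0 in the difference between them, against 674, 1106 and 5 with it. Fitting the arrays of a contrast alone gave 258 (238 of them among the 674), 453 and 0. The difference between genotypes had 3 without a filter on low values and 8 with trended robust variances. Single arrays left out gave 381 to 536 in dko, 754 to 880 in mdx and 1 to 5 in the difference, and all arrays of a number left out gave 168 to 346, 299 to 601 and 0 to 1. With other scalings, offsets, filters and variances the counts stayed within 611 to 768 in dko and 1024 to 1195 in mdx. The sign of each named difference past the threshold was kept in every alternative. Of 120 named probe sets, 55 lost their call without the block, 47 on the arrays of the contrast alone, and 0 to 8 under another scaling, offset, filter or variance model. The cause was not tested. Dim probe sets have little signal over background, so their differences are understated.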
